A study of Drosophila melanogaster with 19 samples.

Results

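The DNA methyltransferase Hia5 at 200 U was set against the same enzyme at 20 U and 60 U. The members were the peak lists of these 3 libraries, all numbered in the first library run, and each list was taken whole. The lists held 4054 peaks at 200 U, 772 at 60 U and 2494 at 20 U, so 7320 of the 82060 peaks of the whole series. Nuclei of S2-DRSC cells (S2-DSRC in the labels), an embryonic Drosophila melanogaster line with hemocyte-like character, were treated with the enzyme for 20 min at 37 °C. Methylated DNA fragments were recovered with an antibody against N6-methyladenine (m6A), and the short fragments were sequenced. The series holds 19 libraries, with 4 further enzymes, Hia5 at 0.6, 2 and 6 U, an immunoprecipitation from untreated cells and a DNA input. Each of the 3 doses had 1 library, so their values carry no replicate error and no test was made between them. The labels describe 1 cell line with no genetic change, and all treated groups shared the nuclear preparation, the incubation time and the antibody. Peaks record methylated DNA and not RNA, so the identity of the cells could not be checked from marker expression.

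Hia5 is a bacterial adenine methyltransferase with little sequence preference, and in nuclei it marks adenines that it can reach. DNA wrapped around nucleosomes is reached less readily than the DNA of promoters, enhancers and linkers, so a map of m6A is read as a map of accessible chromatin. Near the centromeres the fly arms are rich in repeats and packed as heterochromatin, where short reads are hard to place.

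The 3 lists differed in length and in depth together. The deposited heights were whole multiples of 1 step in each list, and the inverse of that step gave a relative depth of 14.1 at 200 U, 7.79 at 60 U and 11.6 at 20 U. The shallowest of the 3 libraries thus had the shortest list and the deepest had the longest. The other Hia5 libraries differ in dose as well. At 6 U the first had a relative depth of 11.9 and 2856 peaks, and the second 7.89 and 2132 peaks. At 2 U the first had 12.1 and 5680 peaks, and the second 11.8 and 6161 peaks. The one at 0.6 U had 7.28 and 8080 peaks. With 1 library a dose, depth and dose cannot be told apart. The lowest peak kept was 8 steps high at 200 U, 9 at 20 U and 14 at 60 U.

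Merging the 3 lists gave 5315 regions, of which 2756 (51.9%) held a peak at 200 U and none at 20 or 60 U. Another 1440 regions (27.1%) held a peak at 20 or 60 U and none at 200 U, made up of 1279 with 20 U alone, 62 with 60 U alone and 99 with both. All 3 doses met in 482 regions (9.07%). The remaining regions joined 200 U with 20 U (542) or with 60 U (95). The 200 U-only regions covered 536 kb with a median length of 145 bp, against 237 kb and 130 bp for those without a 200 U peak and 145 kb and 240 bp for those at all 3 doses. These counts changed with the length of the lists. The class without a 200 U peak pools the 20 and 60 U lists, whereas the 200 U-only class draws on a single list. Lists of equal length therefore favour the pooled class. With each list reduced to its highest peaks, as many as the 60 U list holds, 299 regions were 200 U only and 728 lacked a 200 U peak. With the 200 U list reduced to the length of the 20 U list, a setting chosen after seeing the data, these counts were 1442 and 1617. In pairs of lists of equal length, 37.1% of the 2494 highest 200 U peaks overlapped 1 of as many 20 U peaks, and 45.1% of the 772 highest overlapped a 60 U peak.

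**Figure D1:**
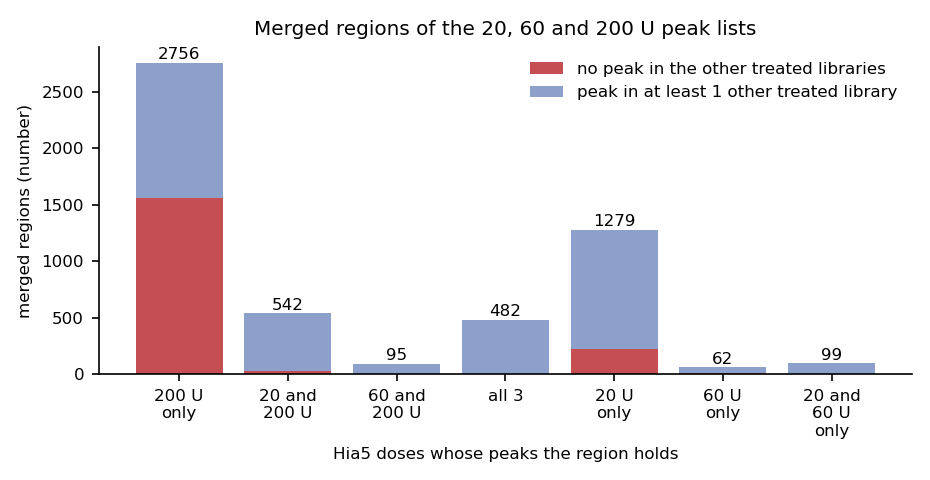
Bars give the number of merged regions by the Hia5 doses whose peaks they hold, split by whether any of the 14 other treated libraries has a peak there. The 200 U-only bar reaches 2756, and 1559 of these regions have no peak in another treated library, against 1 of the 482 regions held at all 3 doses.

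The 200 U-only regions recurred elsewhere in the series less often than the other classes of regions. The other 14 treated libraries used 0.6 to 6 U of Hia5 (5 libraries) or of the other enzymes (9 libraries). No peak of any of them touched 1559 of the 2756 regions (56.6%), against 235 of the 1440 regions without a 200 U peak (16.3%) and 1 of the 482 regions at all 3 doses. Single Hia5 libraries at 0.6 to 6 U overlapped between 6.53% and 11.7% of the 200 U-only regions. They overlapped between 35.1% and 56.1% of the regions without a 200 U peak, and between 64.7% and 84.9% of those at all 3 doses. The highest overlap with the 200 U-only regions came from EcoGII at 6 U, a bacterial adenine methyltransferase whose list was the longest of the series and covered 2.10% of the assembly. It reached 35.2% of them (95% Wilson interval 33.4 to 37.0%), 77.5% of the regions without a 200 U peak and 99.0% of those at all 3 doses. Wilson intervals cover counting error only, and neighbouring regions are not independent.

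The overlap with untreated peaks was highest where all doses met. Untreated peaks overlapped 7.29% of the 200 U-only regions (6.38 to 8.32%) and 10.3% of the regions without a 200 U peak. The share for 200 U-only regions was 11.97% with the higher 50% of each list and 14.0% with lists of equal length, and the share of the other class was not recomputed there. Untreated peaks overlapped 32.5% of the regions shared by 20 and 200 U, and 55.4% of those at all 3 doses (50.9 to 59.8%). The DNA input had 32 peaks, 21 of them on X. It overlapped 31 of the regions at all 3 doses (6.43%) and none of the 2756 regions at 200 U only. There a count of 0 allows a share of up to 0.109% (3 counts of the total). The input had a relative depth of 0.673, against 14.1 at 200 U. Its lowest peak was 22.3 high, against 0.567 at 200 U, so absence from the input says little about low peaks. Of the 482 regions at all 3 doses, 215 remained when peaks that overlap a control peak were left out. The highest peak of the 20, 60 and 200 U lists was the same place, X 23433241 to 23433400 (dm6), in the heterochromatin next to the centromere.

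**Figure D2:**
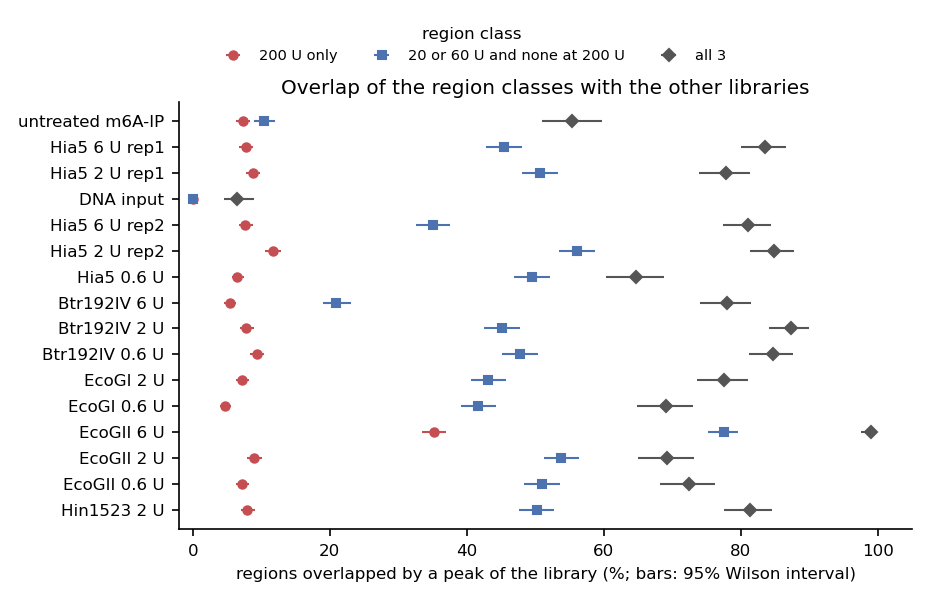
Points give the share of each region class overlapped by a peak of each other library, with 95% Wilson intervals. The 200 U-only regions lie at or below 11.7% for all libraries but EcoGII 6 U at 35.2%, and the regions at all 3 doses lie above 50% for all libraries but the DNA input.

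Peaks found at 1 dose alone were low within their list, at 200 U as at 20 and 60 U. Ranked by height, the median of the 200 U-only peaks stood at percentile 39.3 of the 200 U list, and 80 of 2854 lay in its highest 10%. Peaks at 20 U only had a median percentile of 41.9 in the 20 U list, with 54 of 1292 in its highest 10%. Those at 60 U only had 27.9 in the 60 U list, with 0 of 62. The 200 U peaks shared with 20 U had a median percentile of 70.2, and those in regions at all 3 doses 86.4, with 220 of 522 in the highest 10%. By a split into height classes chosen after seeing the data, the recurrence of 200 U-only regions was highest among high peaks but stayed below that of 20 U-only regions in each of the 4 height classes. At percentiles 75 to 100 of height, 76.1% of 351 regions at 200 U only had a peak in another treated library, against 99.5% of 208 regions at 20 U only. At percentiles 25 to 50 the shares were 25.3% of 830 and 84.7% of 359. Of the 80 regions with a peak in the highest 10% at 200 U, 90.0% recurred. Untreated peaks overlapped 8.95% of the 200 U-only regions at percentiles 0 to 25 and 11.1% at percentiles 75 to 100.

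**Figure D3:**
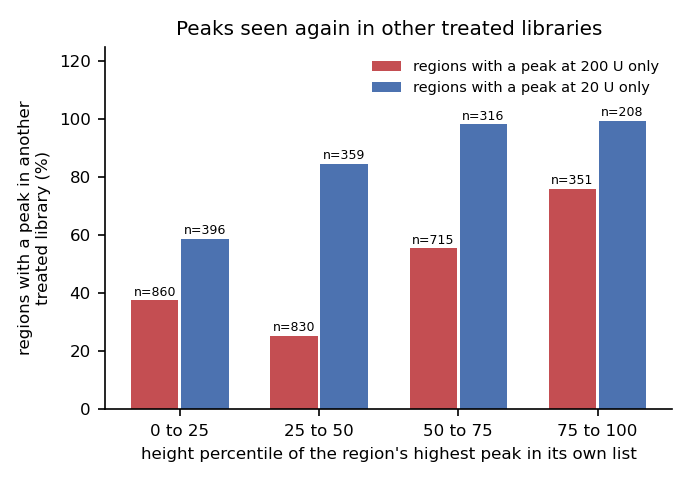
Bars give the share of 200 U-only and 20 U-only regions with a peak in at least 1 of the 14 other treated libraries, by the height percentile of the region's highest peak within its own list, with the number of regions above each bar. At 200 U the share is 37.6% in the lowest height class, 25.3% in the next and 76.1% in the highest, and at 20 U it runs from 58.8% to 99.5%.

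By position, 55.6% of the 200 U-only regions lay in gene bodies (53.8 to 57.5%), 19.2% within 500 bp of a gene end (17.8 to 20.7%) and 25.1% between genes. Regions without a 200 U peak were placed at gene ends more often, with 27.6%, and in gene bodies less often, with 48.7%. Those at all 3 doses lay between genes in 38.6% and at gene ends in 19.3%. The gene table gives no strand or exons, so a gene end is either end of a gene, and exons, introns and UTRs were not analysed here. The 3 Mb next to the centromere of the 5 large arms make up 10.9% of the assembly. They held 15.3% of the 200 U-only regions, 11.8% of those without a 200 U peak and 33.8% of those at all 3 doses.

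Of the 17807 genes in the table, 1559 (8.75%) had a 200 U peak within their span widened by 500 bp, 1273 (7.15%) a 20 U peak and 463 (2.60%) a 60 U peak. In the first run, 20.7% of genes had a peak at 2 U and 9.04% at 6 U, and 4.52% had one in untreated cells. Over the 5 Hia5 libraries at 0.6 to 6 U the share ran from 7.93% to 30.9%. A gene with a peak at 200 U and none at 20 or 60 U was found 860 times (4.83%). The reverse, a peak at 20 or 60 U and none at 200 U, was found 648 times (3.64%), and 328 genes (1.84%) had peaks at all 3 doses. Most of the 860 genes rested on few peaks, since 521 had 1 peak and 114 had 4 or more. No Hia5 library at 0.6 to 6 U had a peak at 359 of the 860 (41.7%), against 63 of the 648 (9.72%) and 6 of the 328. Of these classes, 762 genes (5.46% of protein-coding genes), 562 (4.03%) and 279 (2.00%) were protein-coding. Gene length went with class. The median length of protein-coding genes was 4818.5 bp at 200 U only, 7336.5 bp without a 200 U peak, 21324 bp at all 3 doses and 1942.5 bp for genes with no peak. With each list as long as the 60 U list, 151 genes were 200 U only, 424 lacked a 200 U peak and 159 had all 3. The 424 pool the 20 and 60 U lists, so they are not set against a like number of peaks.

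The protein-coding genes most widely covered at 200 U alone were long stretches of gene body with many peaks. At the head stood kst, which encodes the beta-heavy spectrin of the membrane skeleton, with 21 peaks over 5607 bases at 200 U. No peak lay there at 20 U, 60 U or in untreated cells. Nup205, a scaffold protein of the nuclear pore, had 14 peaks over 5222 bases, which is 63.9% of its widened span. Nmdar1, a glutamate receptor subunit, had 22 peaks over 5185 bases at 200 U. The same pattern of many peaks at 200 U and none in untreated cells was seen in 5 further genes. These were aux with 19 peaks (auxilin, which uncoats clathrin vesicles), Treh with 14 (trehalase, which splits the blood sugar trehalose), l(3)80Fj with 17, CG10631 with 12 and CG31342 with 11. CG31342 had a peak in 1 of the 14 other treated libraries, l(3)80Fj in 2, CG10631 in 3 and kst in 7. Treh and aux had one in 10 each, Nmdar1 in 11 and Nup205 in 12. Nipped-A and CG40470 belonged to the same class with a different background. Nipped-A, the fly member of the TRRAP family of histone acetyltransferase cofactors, had 24 peaks at 200 U and 15 in untreated cells. CG40470 had 16 peaks at 200 U and 48 in untreated cells.

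Genes with peaks at 20 or 60 U and none at 200 U carried fewer bases under peaks. Slmap, whose product belongs to a kinase and phosphatase complex (STRIPAK), had 5 peaks at 20 U and 7 at 60 U, beside 10 in untreated cells. p120ctn, a catenin bound to the cadherin tail, had 14 peaks over 2479 bases at 20 U and none at 60 U or in untreated cells. In the 2 libraries at 2 U it had 0 and 6 peaks. The neighbours Msr-110 and Sras on 3L had 9 and 7 peaks at 20 U. Smr, a corepressor of nuclear receptors, had 7 peaks at 20 U and 1 at 60 U. CG12567, CG4751 and Tmtc3 had 10, 9 and 8 peaks at 20 U and none at 60 U. CG6833 and CG13484, which overlap at their ends, had 4 peaks each at 20 U, 1 and 2 at 60 U and none at 200 U. So 8 of these 10 genes had no untreated peak, the exceptions being Slmap and Smr, which had 10 and 1.

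The genes best covered at all 3 doses also had untreated peaks, in each of the 10. Myo81F, a myosin gene of 1965857 bp in the heterochromatin of 3R, had 23, 13 and 54 peaks at 20, 60 and 200 U and 42 in untreated cells. Next came ap, a LIM homeodomain factor of the dorsal wing, with 19, 1 and 14 peaks, and Snap25, a synaptic SNARE protein, with 23, 1 and 23. eIF5B, a translation initiation factor, had 16, 1 and 16 peaks beside 25 in untreated cells. CG17493 had 9, 8 and 11, raskol 6, 7 and 14, CG13731 4, 5 and 4, and DIP-lambda 12, 1 and 8. CG32373 and Ank2, an ankyrin of neurons, overlap each other, and both owe most of their coverage to 200 U, with 22 and 21 peaks against 2 at 20 U and 1 at 60 U.

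A run was defined as at least 4 neighbouring peaks of 1 list with at most 500 bp between them. The 200 U list held 155 runs with 862 of its peaks (21.3%), the 20 U list 69 runs with 396 (15.9%), the 60 U list 20 runs with 101 (13.1%) and the untreated list 78 runs with 523 (26.5%). The runs at 200 U had a median extent of 2100 bp, from 898 to 6900 bp, and peaks covered a median of 62.6% of them. The peak centres lay a median of 440 bp apart at 200 U and at 20 U, and 433.5 bp apart in untreated cells. Peaks in the 200 U runs were low and wide, with a median height percentile of 30.1 and a width of 251.5 bp, against 55.9 and 154 bp outside runs. Fewer 200 U peaks lay in runs when the list was cut to its highest peaks. Any cut removes neighbours and so breaks up runs, and the part of low height in this was not tested. At the length of the 60 U list, 61 of the 200 U peaks lay in runs, against 44 at 20 U and 101 in the uncut 60 U list. At the length of the 20 U list, 222 of the 200 U peaks (8.90%) did, against 396 peaks (15.9%) of the uncut 20 U list.

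Of the 155 runs at 200 U, 98 held no peak of 20 or 60 U, 28 held 20 U peaks, 2 held 60 U peaks and 27 held both. The 98 differed from the 27 in background and place. An untreated peak lay in 9 of the 98 and in 23 of the 27, and 18 of the 98 and 17 of the 27 lay in the 3 Mb next to a centromere. Protein-coding genes were touched by 75 of the 98 and by 8 of the 27. In 64 of the 98 no Hia5 library at 0.6 to 6 U had a peak, and in 46 no other treated library had one. Of the 69 runs at 20 U, 26 overlapped a run at 200 U, 35 held an untreated peak and 31 lay next to a centromere. The runs at 200 U touched 99 protein-coding genes, 25 of them over at least 50% of their length.

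The longest run at 200 U had 15 peaks over 6900 bp on X (19850821 to 19857720, dm6), with 82.6% of its length under peaks. It took in part of pico, an adaptor of actin regulation related to lamellipodin, and most of Nup205. It held no 20 or 60 U peak and 1 untreated peak, while 12 of the other 14 treated libraries had at least 1 peak in it. A run of 10 peaks on 3R (12986125 to 12990780) covered most of CG31342 and all of CG14383, which was the 1 protein-coding gene found wholly inside a run. A run of 10 peaks in MFS17, a predicted transporter of the major facilitator family, took in mir-2279, a microRNA gene with 3 of the peaks within its widened span. Neither run had a peak in any Hia5 library at 0.6 to 6 U. A run of 9 peaks on 3L lay in l(3)80Fj, in heterochromatin. The other 6 of the 10 longest runs touched no protein-coding gene, and 4 of them had 7 to 11 untreated peaks. One of these, 12 peaks on 2L (23076041 to 23082160), held 14 peaks at 20 U, 10 at 60 U and 11 in untreated cells.

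The longest single region at 200 U alone measured 1740 bp on 3L (14034921 to 14036660), joined 3 peaks, and lay across CG6661 and the antisense gene asRNA:CR42871. The next was 1500 bp in upSET, a SET-domain protein, followed by 1420 bp in kst and 1320 and 1180 bp at Nup205. Only the last of these 5 regions had a peak in another Hia5 library. Without 200 U, the longest region was 1340 bp between genes on 2R, with 3 peaks at 20 U. Across all 3 doses it was 2299 bp between genes on 2L, with 7, 4 and 5 peaks at 20, 60 and 200 U and 5 in untreated cells.

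The 200 U peaks also formed wider groups, described here by a rule chosen after seeing the data: at least 15 peaks, each at most 10 kb from the next, whether or not they lay in runs. There were 53 such groups, which spanned 1507 kb (1.10% of the assembly) and held 1411 of the 200 U peaks (34.8%). They held 18.6% of the 20 U list, 21.5% of the 60 U list and 21.6% of the untreated list. Since the rule picks places rich in 200 U peaks, these shares are a description. An untreated peak lay in 28 of the groups. The other 25 held 581 peaks at 200 U over 593 kb, with 60 peaks at 20 U and 7 at 60 U, and 4 of the 25 lay next to a centromere.

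Several groups with at most 1 untreated peak ran through blocks of neighbouring genes. The genes named for these groups were picked after their values were seen. A group of 47 peaks over 40.8 kb of 3R had no peak at 20 U or 60 U and covered aux, the DEAD-box helicase gene abs and Gel (gelsolin, which severs actin filaments). A group of 38 peaks over 34.7 kb, also on 3R and without 20 or 60 U peaks, took in CG31342 and the tandem pair yellow-f and yellow-f2, melanin pathway genes with 3 peaks each. On 3L, 22 peaks over 13.7 kb covered Oseg1, a ciliary transport gene, Exo70, of the exocyst, and mtrm, a meiotic inhibitor of Polo kinase, and no peak lay in that span in the first-run libraries at 2 and 6 U or in untreated cells. A group of 54 peaks over 58.2 kb of 3L, with 18 peaks at 20 U and 4 at 60 U, took in upSET, Hsp110, a chaperone with 10 peaks, and Neurl4, with 12 peaks over 63.3% of its widened span. There the doses alternated along the chromosome, since CG6833 and CG13484, beyond Neurl4 within the same group, had peaks at 20 and 60 U and none at 200 U. A group of 56 peaks over 62.9 kb of 3R held 1 peak at 20 U, 1 at 60 U and 1 in untreated cells. It took in Nmdar1, ksr, a scaffold of the Ras to MAP kinase pathway with 8 peaks, and Hcs, holocarboxylase synthetase, with 12.

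**Figure D4:**
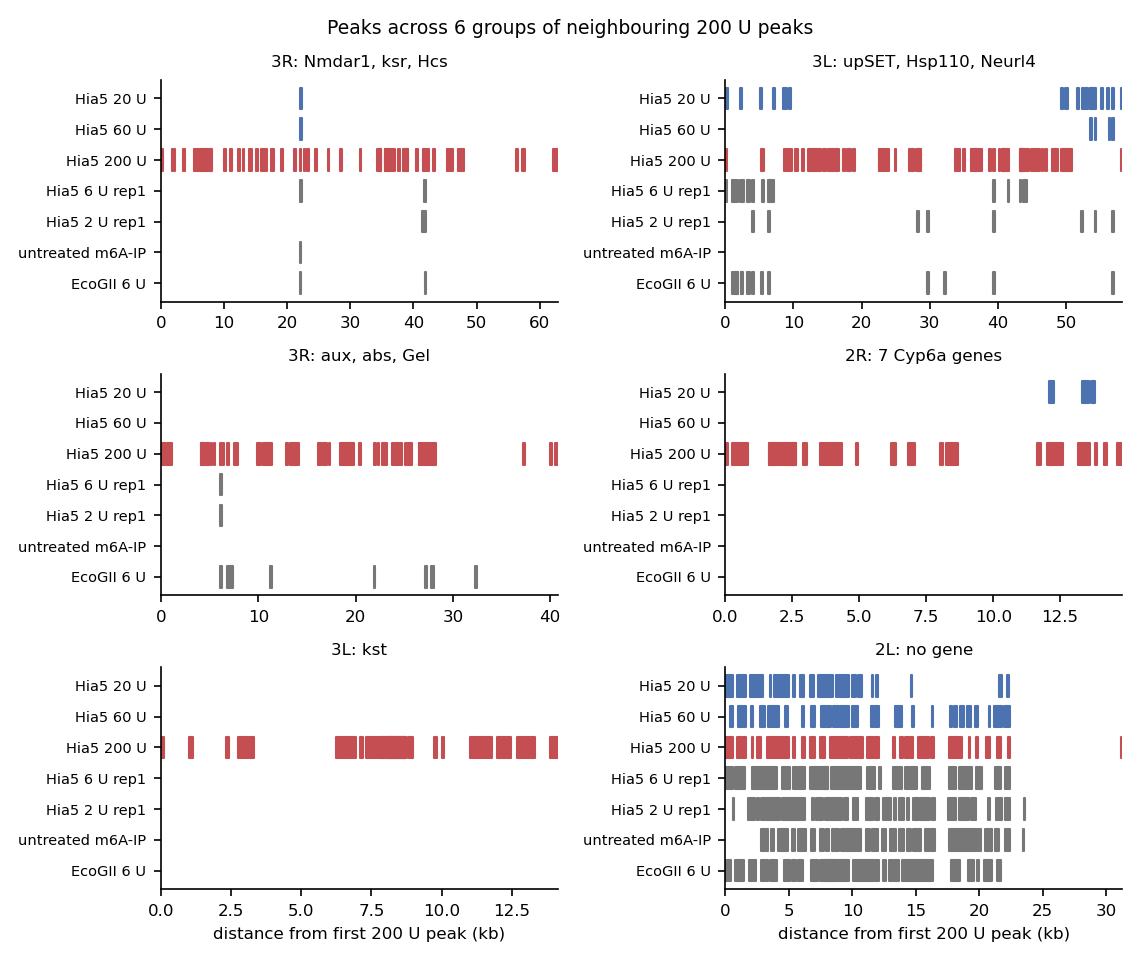
Each panel shows the peaks of 7 libraries as blocks along 1 group of neighbouring 200 U peaks, in kb from its first 200 U peak. In 5 panels the 200 U row (red) is filled where the rows of 20 and 60 U (blue) and of the other libraries (grey) are empty or hold fewer peaks, and in the panel without a gene on 2L, with 37 peaks at 200 U, 30 at 20 U and 30 at 60 U, all 7 rows are filled.

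Gene families were read against all protein-coding genes, of which 9.87% had a 200 U peak, 7.97% a 20 U peak and 2.84% a 60 U peak. Of the families in tandem arrays, cytochromes P450 and cuticle proteins were near that 200 U share, while chemoreceptors (3.91%), glutathione S-transferases (2.86%), UDP-glycosyltransferases (2.86%), Osiris genes (4.00%) and odorant-binding proteins (1.96%) were below it. In untreated cells 5.15% had one, and at 6 U 10.0% and 8.83%. Of 85 cytochrome P450 genes, which encode oxidising enzymes of detoxification and hormone synthesis, 8 had a 200 U peak (9.41%), 2 a 20 U peak and none a 60 U peak. At 2 U, 8 had a peak in either library, and at 0.6 U 17 did (20.0%). In the 8 at 200 U, 7 were neighbours of the Cyp6a array on 2R, inside 1 group of 21 peaks over 14.8 kb. Cyp6a23 had 5 peaks over 54.9% of its widened span, and Cyp6a17 had 5 over 38.2%. Cyp6a19 and Cyp6a20 had 3 and 2, and these 4 genes had no peak in any of the 14 other treated libraries or in untreated cells. Cyp6a8 and Cyp6a21, further along, had 5 and 4 peaks at 200 U and 2 and 1 at 20 U. The array genes are similar in sequence and lie close together, so 1 peak can fall within reach of 2 genes.

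Of 118 cuticle protein genes, 13 had a 200 U peak (11.0%), 3 a 20 U peak and 1 a 60 U peak, while 3 to 7 had one in single Hia5 libraries at 0.6 to 6 U. Ccp84Ac had 2 peaks over 29.2% of its widened span and TwdlV 2 over 22.5%, both absent from the other treated libraries, while Ccp84Ab had 3 at 200 U and 1 at 60 U. Of 179 chemoreceptor genes, 7 had a 200 U peak (3.91%), all of them with none at 20 or 60 U, and 1 had a 20 U peak. At 2 U 4 and 6 of them had a peak, and at 0.6 U 10 did (5.59%). Ir41a had 13 of these peaks over 2748 bases, and Gr43a, a fructose receptor, had 3. Jon65Ai and Jon65Aii, the 2 members with a peak among 27 serine proteases, shared 1 peak.

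Housekeeping lists had fewer members with a peak at 20 to 200 U than at 0.6 to 2 U, as did all protein-coding genes and the cytochromes P450 except for an equal count of 8 at 200 and 2 U. Of 93 ribosomal protein genes, 3 had a 200 U peak (3.23%), 4 a 20 U peak and none a 60 U peak. In first-run Hia5 at 2 U, 30 of them (32.3%) had a peak, when 23.4% of all protein-coding genes did. The counts were already low at 6 U. There 5 and 3 ribosomal protein genes had a peak in the 2 libraries (5.38% and 3.23%), against 10.0% and 8.83% of protein-coding genes. Of 48 proteasome genes, 1 (Prosbeta6) had a 200 U peak (2.08%) and none a 20 or 60 U peak. In the 2 libraries at 2 U, 11 and 8 had a peak, and in each of those at 6 U 1 did. Of 295 tRNA genes, 3 had a 200 U peak (1.02%), 3 a 20 U peak (1.02%) and none a 60 U peak. Of all genes in the table, 8.75%, 7.15% and 2.60% had one at these doses. In the 2 libraries at 2 U, 28 and 19 tRNA genes had a peak (9.49% and 6.44%), against 20.7% and 21.3% of all genes. At 6 U, 9 and 2 tRNA genes did (3.05% and 0.678%), against 9.04% and 7.93%. Hox genes, which set segment identity, had a 200 U peak in 5 of 8 (62.5%) and a 20 U peak in 5 of 8. The shares of all protein-coding genes were 9.87% and 7.97%. The median length of the Hox genes was 30563 bp. Untreated cells had a peak in 3 of 8 (37.5%, against 5.15% of protein-coding genes), and single Hia5 libraries at 0.6 to 6 U in 6 to 8 of 8.

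**Figure D5:**
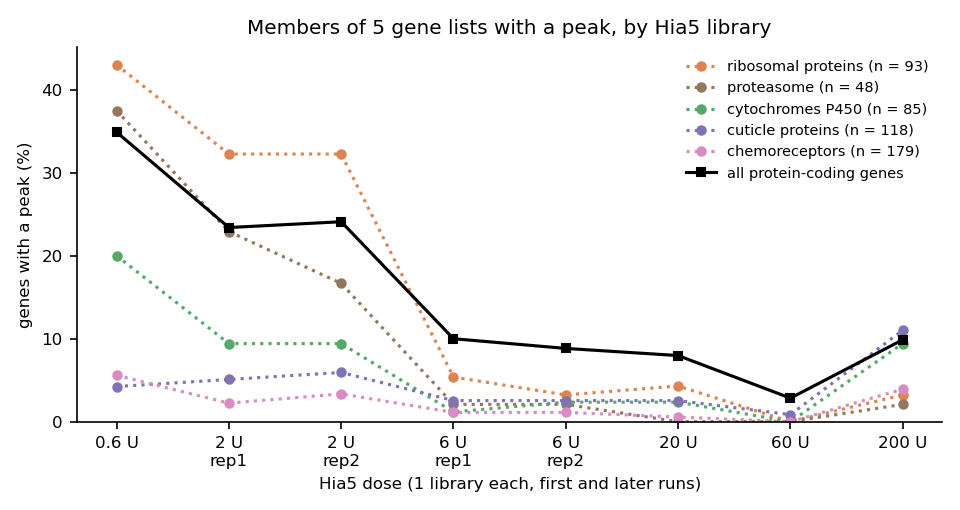
Points give the share of each gene list with a peak in each Hia5 library, from 0.6 to 200 U, beside all protein-coding genes (black). Ribosomal protein genes fall from 43.0% at 0.6 U to 5.38% and 3.23% at 6 U and stand at 3.23% at 200 U. Cuticle protein genes have their highest share, 11.0%, at 200 U.

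Among 17 genes of hemocyte identity, 6 had a 200 U peak (35.3%), 6 a 20 U peak (35.3%) and 2 a 60 U peak (11.8%), against 9.87%, 7.97% and 2.84% of all protein-coding genes. In untreated cells 5 of the 17 had a peak (29.4%), against 5.15% of protein-coding genes. Single Hia5 libraries at 0.6 to 6 U had a peak in 41.2% to 76.5% of the 17, against 8.83% to 34.9% of protein-coding genes. The median length of the 17 genes was 9334 bp, against 1942.5 bp for protein-coding genes with no peak. ush, a cofactor of the GATA factor srp, had 8 peaks at 200 U and 2 at 20 U. srp had 1 peak at each of the 3 doses, Col4a1 and zfh1 1 each at 20 and 200 U, and LanA 1 at 200 U. Of the 17, 2 had a peak at 20 or 60 U and none at 200 U, and 2 had one at 200 U only. Among the former, vkg had 1 peak each at 20 and 60 U. Peaks at these genes were also found in all 5 Hia5 libraries at 0.6 to 6 U. Untreated cells had 2 peaks at ush, 1 each at srp, Col4a1 and LanA, and none at zfh1 or vkg. The remaining lists had at most 3 protein-coding members with a 200 U peak each. Antimicrobial peptide genes (20) had none at any of the 3 doses, and the 11 Enhancer of split genes had 1 at 20 U. Histone genes are near-identical repeats whose reads cannot be placed singly, and 3 of the 118 symbols that begin with His had a 200 U peak, 1 of which, HisT, is no histone by its symbol. Among 260 microRNA genes 9 had a 200 U peak (3.46%, against 8.75% of all genes in the table), with mir-let7 and mir-125 sharing 1 peak that no other treated library had.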

How the data were processed

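AdMTase-seq peak lists of 3 libraries (Hia5 at 200, 60 and 20 U) were compared, with the other 16 libraries beside them. The authors deposited 1 list per library, with position and a height in tag-density signal, at an FDR of 5% per the file names. BWA 0.7.12, SAMtools 1.2 and the fly build dm6 are listed per the submitters' processing notes, with no role given. Which caller was used, whether it subtracted the input and what it filtered is not given in the sources used. Heights ranked or filtered peaks within a list. Their steps gave relative depth, with 100% of values whole within 0.05 of a step.

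Peaks were merged across lists where they overlapped by at least 1 bp, in Python 3.11.15 with pandas 2.3.3. Gene spans came from RefSeq's table of release 6. Named genes were the 10 protein-coding genes with the most covered bases per class, those in the 10 longest runs, up to 6 members a list and the 5 longest regions per class. The members and lists were chosen with earlier results of these data known. Interval code was tested on simulated data. Alternatives changed list length, controls, merging, gene window and run rules. No sequences were printed, since no genome was used here.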

Additional observations from a re-analysis of the deposited data

How the results depend on the processing

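No paired analysis was possible because each dose had 1 library and no test was made. Of 97 alternative values for 10 results, 56 stayed within 1.5 times a count or within the interval of a share. Regions at 200 U only outnumbered those at 20 or 60 U without 200 U in 9 of 11 settings, the exceptions being the lists of equal length and the 200 U list reduced to the length of the 20 U list. In these exceptions the class without 200 U pooled the 20 and 60 U lists, which together held more peaks than the 200 U list. With lists of equal length, regions were 299 (200 U only), 728 (none at 200 U) and 242 (all 3), genes 151, 424 and 159, peaks in runs 61, runs without a 20 U run 6, the untreated share 14.0% and the gene end share 14.7%. With the higher 50% of each list, regions were 1328, 631 and 284, genes without 200 U 397 and at all 3 204, peaks in runs 165, runs without a 20 U run 23, and the shares 11.97% and 15.3%. Without peaks that overlap a control peak, 215 regions and 211 genes had all 3 doses. Without the 60 U list, 1030 regions and 647 genes had every dose left, and without the 20 U list 166 regions and 83 genes lacked 200 U. With the 200 U list reduced to the length of the 20 U list, 1442 regions were 200 U only, 222 peaks lay in runs and 31 runs had no 20 U run. Without the 3 Mb next to the centromere, 319 regions had all 3 doses and the gene end share was 22.1%. These last 2 settings were chosen after seeing the data. A minimum of 100 covered bases left 215 genes at all 3 doses. Peaks in runs and runs without a 20 U run were 331 and 59 with a gap of 250 bp, 1661 and 191 with 1000 bp, and 437 and 46 with at least 6 peaks, and with at least 3 peaks the latter were 241. The untreated share was 5.12% when 50% of the region had to be covered. Gene end windows of 200 and 1000 bp gave 8.42% and 31.7%. Relative depth differed between the 3 libraries, so absence of a peak from the 60 U list in particular is not absence of methylation.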
